A study of Mus musculus with 20 samples.

Results

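The expression of each gene in LSK cells that had lost both Bcor and Dnmt3a was compared with the level given by multiplying the separate effects of the 2 losses. LSK cells are bone marrow cells without lineage antigens that carry Sca1 and Kit, the fraction in which blood stem cells and early progenitors are found. For each gene the interaction was the double knockout mean minus the Bcor-/- mean minus the Dnmt3a-/- mean plus the WT mean, on the scale of log2(FPKM + 1). An interaction of 0 means that the effects multiply, and a positive value means that the double knockout level lay above that product. All 10 LSK libraries of the 20 libraries of the study were used, and 11952 of the 24315 listed genes had a mean of at least 1 FPKM and were tested.

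The libraries came from C57BL/6 mice of 4 genotypes, 3 WT, 2 Bcor-/-, 3 Dnmt3a-/- and 2 Bcor-/-Dnmt3a-/-, and the other 10 libraries were MEP cells, the megakaryocyte-erythroid progenitors of the same mice. Deletion was driven by Mx1-Cre, an interferon-inducible Cre, after pIpC injection, and the WT controls were mice with untargeted genes. The labels of every knockout library name Cre and those of the WT libraries do not. An effect of Cre itself therefore cannot be told apart from the interaction. Bcor-/- replicate 1 carries the names of 2 mice in its label. By the account of the study the double knockout mice were leukemic and Dnmt3a deletion was partial in the single knockout, but the labels give no stage of disease and no age. Thus stage and genotype cannot be told apart in the double knockout group. The same holds for an interaction and a Dnmt3a loss that was more complete in the double knockout than in Dnmt3a-/-. In sorted bulk samples, fewer cells of a type and less RNA per cell cannot be told apart either.

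BCOR is a subunit of a Polycomb complex, PRC1.1, that represses genes through histone H2A ubiquitination. DNMT3A is a de novo DNA methyltransferase, and its loss expands blood stem cells and impairs their differentiation. GATA2 is a transcription factor of stem cells and early progenitors, and it is replaced by GATA1 as cells enter the erythroid and megakaryocytic lineages, where GATA1 and KLF1 drive the globin, heme and membrane genes of the red cell.

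The targeted genes were examined first. Bcor read 32.4, 31.1 and 29.5 FPKM in WT, against 22.4 and 23.2 with Bcor lost, 35.8, 30.1 and 32 with Dnmt3a lost, and 24 and 37.4 with both lost. Dnmt3a read 19.9, 16.1 and 17.2 FPKM in WT, against 13.9 and 14.1 with Bcor lost, 16.9, 14 and 11.3 with Dnmt3a lost, and 10.4 and 10.9 with both lost. Double knockout replicate 2 was above every WT library for Bcor, and Dnmt3a-/- and WT overlapped for Dnmt3a. Only some exons were deleted, and FPKM over the whole gene do not show the deletion itself. The study describes the message left after Bcor deletion as short-lived, and the Bcor FPKM of the libraries labelled as Bcor-deleted, in particular double knockout replicate 2, show no large loss of message. By its other assays the study describes Bcor as lost in such mice, and Dnmt3a as fully lost in the leukemic double knockout. Genotypes are therefore those of the labels throughout, and each direction below is between libraries so labelled.

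The double knockout libraries stood apart in their markers. Kit, the stem cell factor receptor and 1 of the antigens of the sort, read 164, 148 and 174 FPKM in WT, against 118 and 123 with Bcor lost, 184, 171 and 155 with Dnmt3a lost, and 47.7 and 19.4 with both lost. Ly6a, which encodes Sca1, had 63.5 and 220.2 FPKM in the double knockout and 59.8 to 70.7 in WT. The summed level of 9 LSK markers was 182.1 and 373.8 FPKM in the double knockout, below the 576.7 to 1308 of the other libraries. The sum of 4 B cell markers was 1436 and 1100 FPKM against 28.6 to 68.5 in the others, and that of 4 T and NK cell markers was 35.3 and 125.8 against 0.76 to 3.57, although a lineage-negative gate should remove such cells. The sum of 6 granulocyte and monocyte markers was 11190 FPKM in WT replicate 2 against 2942 and 3009 in the other WT libraries. It was highest in Bcor-/-, at 15360 and 22240 FPKM, with 2193 to 3379 in Dnmt3a-/- and 6940 and 6732 in the double knockout. The sum of 4 macrophage markers was 1141 FPKM in double knockout replicate 1 and 29.6 in replicate 2. The double knockout libraries also resembled each other less than other replicates did, with a Pearson correlation of 0.849 across genes against at least 0.973 in the other genotypes, and a fitted variance 8.83 times that of WT. The part of these other cells in the results was not tested.

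**Figure D1:**
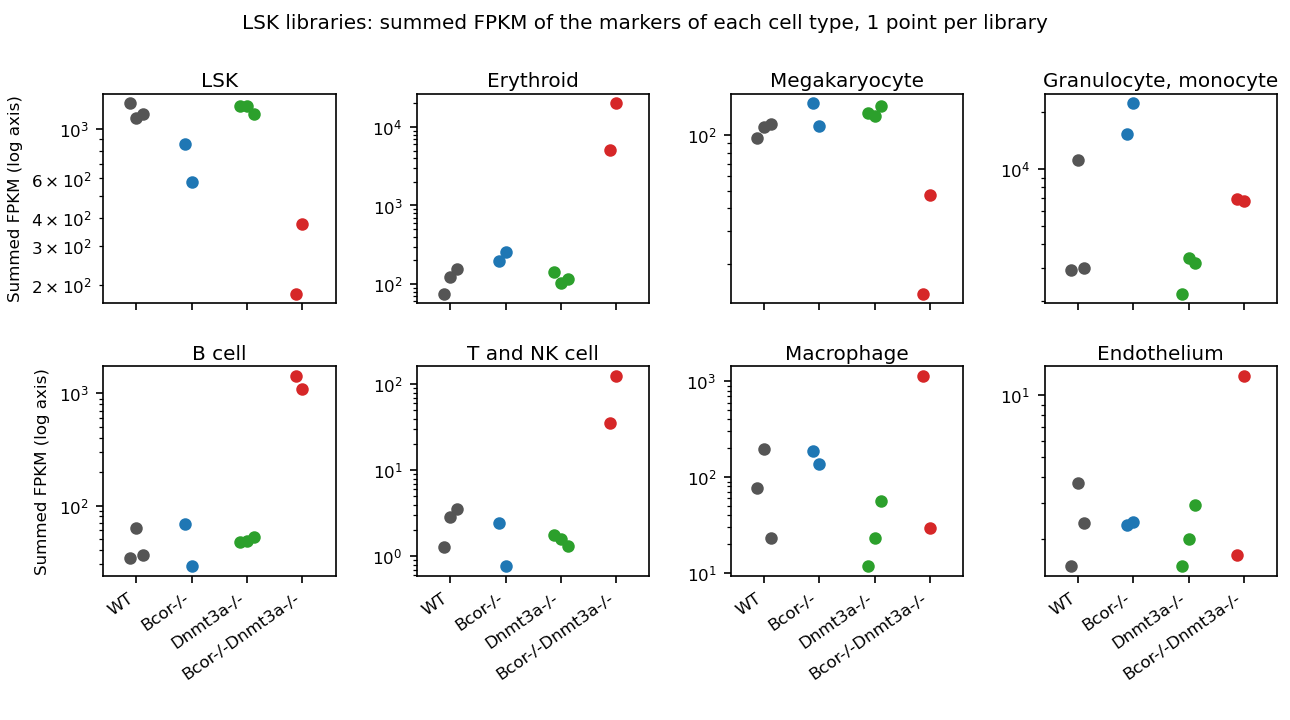
Summed FPKM (log axis) of the markers of 8 cell types in each of the 10 LSK libraries, with 1 point per library and genotypes along the horizontal axis. In both double knockout libraries the LSK marker sum is lowest, and the erythroid, B cell and T and NK cell sums are highest.

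The interaction passed the test in 700 genes, 5.86% of those tested, with 410 genes (3.43%) above the multiplied level and 290 (2.43%) below it (limma, Benjamini-Hochberg adjusted p under 0.05 and more than 1.5-fold). The median absolute interaction of these genes was 2.01 on the log2 scale, with extremes of 6.85 and -4.36, while the median over all tested genes was -0.03, with quartiles of -0.42 and 0.43. In 675 of the 700 genes both double knockout libraries lay outside all 8 other libraries, 404 above and 271 below. Over all tested genes 16.5% had both double knockout libraries above the other 8 and 16% below. Of the 410 genes called higher, 74 averaged under 1 FPKM over the other 8 libraries and were tested only because of their double knockout level, which left them only a call upward.

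The Dnmt3a term of the sum was small for most genes. It was larger in some groups of genes, with a median difference from WT of -1.14 over the late neutrophil granule genes described below. Dnmt3a-/- against WT passed the test in 4 genes (0.0335%), Bcor-/- against WT in 1624 (13.6%), and the double knockout against WT in 1018 (8.52%). Thus the multiplied level was for most genes close to the Bcor-/- level. These contrasts and the interaction share libraries.

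The calls depended on how the spread was modelled. The test assumed that double knockout libraries vary more than WT by the same factor in every gene. In an alternative chosen after seeing the data, the spread was instead moderated within each genotype. It was a t-test on the summed variances of the genotype means, with Satterthwaite degrees of freedom. It called 573 genes (4.79%), 354 higher (2.96%) and 219 lower (1.83%), of which 368 were among the 700. All 700 kept their sign under every alternative in which they were tested, but several alternatives leave the group means unchanged and cannot turn a sign. Each library centred on its median moved the share of higher genes from 58.6% to 48.9% of the calls and the median interaction of all genes from -0.03 to -0.13.

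**Figure D2:**
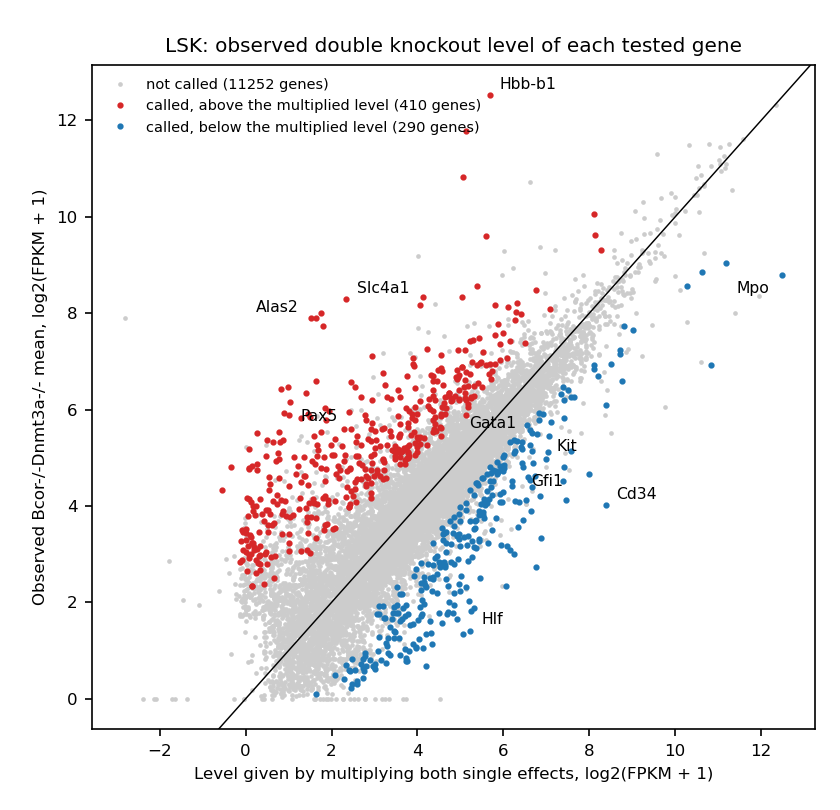
Observed mean of the double knockout LSK libraries (vertical axis) against the level given by multiplying both single effects (horizontal axis), both in log2(FPKM + 1), with 1 point per tested gene and a line where they are equal. The 410 genes called above the line reach an interaction of 6.85 and the 290 called below it reach -4.36.

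Globin and heme genes had the 3 highest interactions. None of 10 tested erythroid transcription factors was called higher, a count close to the 3.43% called higher over all tested genes. Of 12 tested globin and heme synthesis genes 6 were called higher and none lower, with a median interaction of 1.82. Hbb-bs, which enters this median, was tested only because of its double knockout level and could only be called higher. It was not called, and all 6 calls were among the other 11 genes. Of 15 genes of red cell iron uptake and membrane 7 were called higher and none lower, with a median of 1.68. Both counts compare with 3.43% called higher over all tested genes, and both medians with -0.03. With spread moderated within genotype 5 of the 6 and 5 of the 7 kept their call, and 5 and 8 genes were called higher, against 2.96%. Bcor loss alone raised 5 of the 12 (median difference from WT 0.69) and 10 of the 15 (0.97), against 7.1% of all tested genes.

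Hbb-b1, an adult beta globin, read 14.1, 34.8 and 57.8 FPKM in WT, against 62.5 and 45.5 with Bcor lost, 45.2, 20.1 and 26.3 with Dnmt3a lost, and 2825 and 12338 with both lost. Both double knockout libraries were far above the others, and the multiplied level was 50.2 FPKM. Its interaction was 6.85 ± 1.28 (SE, adjusted p = 0.0147). Hba-a1, an alpha globin, gave 6.65 ± 1.32 (adjusted p = 0.0183), with 1810 and 6837 FPKM in the double knockout against 8.83 to 43.4 elsewhere. Globin genes have near-identical copies, so how reads were shared among them is uncertain.

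Alas2, the erythroid enzyme that starts heme synthesis, read 0.54, 1.57 and 2.01 FPKM in WT, against 1.72 and 1.04 with Bcor lost, 2.45, 1.23 and 1.84 with Dnmt3a lost, and 120 and 469 with both lost. Neither single knockout was separated from WT, and the interaction was 6.37 ± 0.79 (limma, adjusted p = 0.00434). Slc4a1, the band 3 anion exchanger of the red cell membrane, rose from 0.96 to 5.47 FPKM in the other 8 libraries to 223 and 437, with an interaction of 5.94. Among the other genes called higher were Fech, the enzyme that inserts iron into heme, and Tfrc, the transferrin receptor, with interactions of 1.91 and 1.59. Fech lost its call with spread moderated within genotype (adjusted p = 0.0661).

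Gata1 read 7.83, 12.1 and 12.9 FPKM in WT, against 18 and 34.3 with Bcor lost, 11.4, 13.7 and 14 with Dnmt3a lost, and 44.1 and 43.5 with both lost. Bcor loss alone raised it by 1.14 on the log2 scale (adjusted p = 0.0111), and the multiplied level was 29.9 FPKM. The interaction of 0.53 ± 0.61 did not pass the test (limma, adjusted p = 0.682), and was 0.087 without Bcor-/- replicate 1 and 0.98 without replicate 2. Klf1 read 1.96, 4.96 and 6.05 FPKM in WT, against 16.1 and 35.4 with Bcor lost, 5.01, 3.94 and 6.84 with Dnmt3a lost, and 52 and 35.3 with both lost. Its level in the double knockout overlapped that in Bcor-/-, and its interaction was 0.51 ± 0.95 (adjusted p = 0.815), which became -0.029 without Bcor-/- replicate 1. Of 10 tested erythroid transcription factors 1 was called, Lmo2, which bridges GATA and TAL1 in one complex, and it was lower (-1.56). That count is close to the 5.86% called in either direction over all tested genes. A difference in calls between the factors and the red cell genes was not tested.

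**Figure D3:**
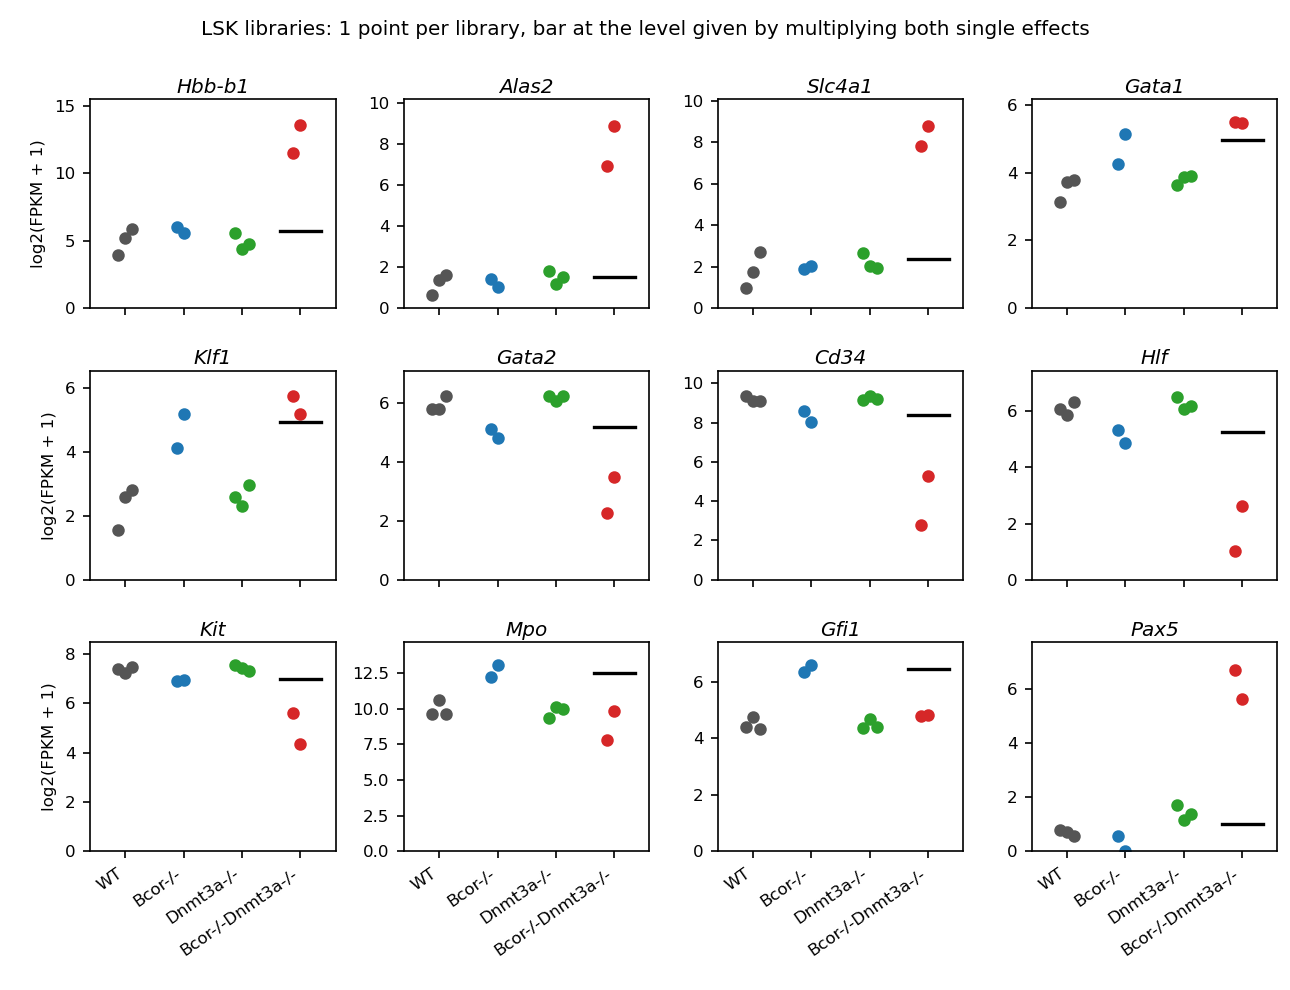
Values of 12 genes in the 10 LSK libraries in log2(FPKM + 1), with 1 point per library, genotypes along the horizontal axis and a bar at the level given by multiplying both single effects. Hbb-b1, Alas2 and Slc4a1 lie far above the bar in both double knockout libraries, Gata1 and Klf1 lie close to it, and Cd34, Hlf and Gata2 lie below it.

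Because GATA factors bind the promoters of many of these genes, the 250 bases before the start site are shown for a gene above the multiplied level, a factor close to it and a pair of genes below it. The sequences are from RefSeq (GRCm38.p6), at X:150547167-150547416 on the plus strand for Alas2, 8:84901732-84901981 on the plus strand for Klf1, 1:194938571-194938820 on the plus strand for Cd34 and 11:90390918-90391167 on the minus strand for Hlf. Capitals mark a GATA motif, here the letters AGATAA, the letters TGATAA, the letters AGATAG or the letters TGATAG, searched on both strands and with no overlap between matches in these windows.
Alas2: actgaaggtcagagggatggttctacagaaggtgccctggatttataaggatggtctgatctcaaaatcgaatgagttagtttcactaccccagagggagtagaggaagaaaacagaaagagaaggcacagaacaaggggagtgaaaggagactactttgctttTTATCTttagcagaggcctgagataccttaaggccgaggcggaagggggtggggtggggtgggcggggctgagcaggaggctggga
Klf1: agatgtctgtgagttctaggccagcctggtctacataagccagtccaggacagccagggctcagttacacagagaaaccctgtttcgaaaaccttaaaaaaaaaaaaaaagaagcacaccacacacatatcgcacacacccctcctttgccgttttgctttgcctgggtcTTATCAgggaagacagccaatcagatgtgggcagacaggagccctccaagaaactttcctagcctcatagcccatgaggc
Cd34: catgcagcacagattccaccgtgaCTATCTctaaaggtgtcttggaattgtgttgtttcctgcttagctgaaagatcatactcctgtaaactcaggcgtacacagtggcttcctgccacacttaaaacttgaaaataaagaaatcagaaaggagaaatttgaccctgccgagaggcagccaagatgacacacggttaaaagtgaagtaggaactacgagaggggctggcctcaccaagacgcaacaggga
Hlf: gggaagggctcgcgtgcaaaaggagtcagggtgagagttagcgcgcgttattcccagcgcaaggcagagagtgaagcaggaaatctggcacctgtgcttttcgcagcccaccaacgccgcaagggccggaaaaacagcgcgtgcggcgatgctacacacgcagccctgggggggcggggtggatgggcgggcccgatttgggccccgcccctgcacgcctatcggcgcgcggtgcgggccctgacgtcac
At least 1 of these motifs was in the window of 17.1% of the 9619 tested genes with a promoter in the table. The share was 19.8% among genes called higher and 19.6% among genes called lower, close to that background. Among red cell iron and membrane genes 7 of 9 matched windows held the motif. It was in 4 of 8 windows of globin and heme genes and also in 4 of 8 of erythroid transcription factors, none of which was called higher. It was in 2 of 15 windows of stem cell transcription factors, 3 of 15 of stem cell surface genes and 0 of 15 of early granulocyte and monocyte genes. The KLF motif CCACACCC was in 3.52% of all windows and in none of the 4 printed. The windows of genes called higher held a median of 10 CG dinucleotides and those called lower 11.5, against 16 over all tested genes.

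Of 19 stem cell transcription factors 7 were called lower and none higher (median -1.54), against 2.43% called lower over all tested genes. Of 20 genes of stem cell surface and niche signals 9 were called lower and none higher (median -1.88). The other 12 and 11 genes did not pass, and 2 and 5 members had an estimate above 0. With spread moderated within genotype the counts were 6 and 3, against 1.83% over all tested genes, and 4 of the 7 and 3 of the 9 kept their call.

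Cd34, a surface sialomucin of progenitors, read 650, 551 and 548 FPKM in WT, against 391 and 265 with Bcor lost, 573, 650 and 581 with Dnmt3a lost, and 5.87 and 37.3 with both lost. Bcor loss alone lowered it, and the double knockout was far below the multiplied level of 332 FPKM. The interaction was -4.36 ± 0.57 (limma, adjusted p = 0.00516), but adjusted p = 0.0705 with spread moderated within genotype. Hlf, a transcription factor of long-term stem cells, read 67.6, 57.1 and 80.5 FPKM in WT, against 39.1 and 28 with Bcor lost, 89.4, 66.8 and 72 with Dnmt3a lost, and 1.01 and 5.18 with both lost. Its interaction was -3.43 ± 0.52 (adjusted p = 0.0086), and the call was kept with spread moderated within genotype (adjusted p = 0.0465).

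Gata2 read 54.7, 54.1 and 74.5 FPKM in WT, against 33.5 and 26.8 with Bcor lost, 74.2, 65.1 and 73.7 with Dnmt3a lost, and 3.74 and 10.1 with both lost. Every double knockout and Bcor-/- library was below WT, and the double knockout lay below the multiplied level of 35.3 FPKM. The interaction was -2.32 ± 0.43 (limma, adjusted p = 0.0147, and 0.0588 with spread moderated within genotype). Kit gave -2.01 ± 0.34 (adjusted p = 0.011, and 0.0892). Meis1, a cofactor of Hox proteins, gave -3.17 and Mecom, which encodes EVI1, gave -1.94. With spread moderated within genotype Mecom kept its call (t-test, adjusted p = 0.0279) and Meis1 did not (0.092). Meis1 gave -2.10 without double knockout replicate 1 and -4.25 without replicate 2. Slc22a3, a transporter of organic cations, gave -3.71 and kept its call in every alternative. Adgrl4, an adhesion receptor, gave -4.02, and Angpt1, a ligand of TIE2, gave -3.71. Both lost their calls with spread moderated within genotype (t-test, adjusted p = 0.0701 and 0.0651). Of the 12 tested HoxA and HoxB genes 1 was called, Hoxa9, at -2.67, a count close to the 2.43% called lower over all tested genes. Hoxb7 and Hoxb8 were tested only because of their double knockout level and could not be called lower, which left 10 genes. Hoxa9 lost its call with spread moderated within genotype (t-test, adjusted p = 0.0557), where 1 other gene of the list was called lower.

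Of 19 megakaryocyte and platelet genes 5 were called lower and none higher (median -1.23), against 2.43% called lower over all tested genes. With spread moderated within genotype 2 were called lower, of which 1 was among the 5, against 1.83% called lower over all tested genes. Clec1b of this list was tested only because of its double knockout level and could not be called lower. Pf4, a platelet chemokine, read 34.9, 50.8 and 43.3 FPKM in WT, against 86.8 and 66.6 with Bcor lost, 62.2, 64.7 and 68 with Dnmt3a lost, and 4.08 and 19.4 with both lost. Both single knockouts were above WT and the double knockout was below it. The interaction was -3.52 (adjusted p = 0.0687 in the t-test with spread moderated within genotype). Itga2b, an integrin of megakaryocytes, gave -2.16 and lost its call in 8 of 21 alternatives, with -1.12 without double knockout replicate 1 and -3.20 without replicate 2.

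In a further set of genes the Bcor-/- mean differed from WT by more than 1.5-fold, while the double knockout was near WT or on its other side. Of the 700 called genes 164 (23.4%) were of this kind, against 10.3% of all tested genes. In 92 of them Bcor-/- lay below WT and in 72 above, and in 134 the double knockout lay on the other side of WT by more than 1.5-fold. In most called genes, 456 (65.1%, against 81% of all tested), neither single knockout mean differed from WT by 1.5-fold. In 70 (10%, against 5.88%) the Bcor effect was larger in the double knockout. These classes use the same means as the interaction and are a description.

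Bcor loss alone raised 14 of 19 early granulocyte and monocyte genes, against 7.1% of all tested genes raised by it, and 6 of the 19 had an interaction called lower and none higher (median -1.71), against 2.43% called lower over all tested genes. With spread moderated within genotype 3 of the 6 kept their call and 2 other genes of the list were called lower, against 1.83% over all tested genes. Mpo, the myeloperoxidase of neutrophil granules, read 788, 1532 and 785 FPKM in WT, against 4710 and 8426 with Bcor lost, 644, 1088 and 1020 with Dnmt3a lost, and 221 and 891 with both lost. Only the Bcor-/- libraries were high, and the double knockout overlapped WT. Its interaction was -3.69 ± 0.92 (limma, adjusted p = 0.0429), a call lost in 8 of 21 alternatives, with adjusted p = 0.0534 when spread was moderated within genotype.

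Gfi1, a repressor that directs granulocyte differentiation, read 20.3, 26.3 and 19.3 FPKM in WT, against 80.4 and 96.5 with Bcor lost, 19.6, 24.5 and 20.2 with Dnmt3a lost, and 26.7 and 27.5 with both lost. The double knockout libraries were close to each other and just above WT, and the interaction was -1.64 ± 0.37 (adjusted p = 0.0292 in limma, and 0.00725 with spread moderated within genotype). Csf3r, the G-CSF receptor, does not belong to the 164, since its Bcor-/- mean lay 0.57 above WT on the log2 scale, under the fold limit. It had 12.4 and 15.8 FPKM in the double knockout and at least 57.2 in every other library, with an interaction of -2.75. Mgl2, a lectin of macrophages and dendritic cells, had 37.2 and 53.3 FPKM in Bcor-/- and at most 6.8 in every other library (-3.41). Emp1, a membrane protein, showed the opposite order, with 3.72 and 2.62 FPKM in Bcor-/-, 20.7 and 24.7 in the double knockout and 14.7 to 23.1 in WT (1.97). Of 12 late neutrophil granule genes none was called, against 5.86% over all tested genes, with a median interaction of 2.89. At an unadjusted p under 0.05 with the fold limit 4 passed, against 20.6% of all tested genes. With equal variance for all genotypes 5 passed, against 1774 of 11952 tested genes. The alternative with spread moderated within genotype called 8 higher, against 2.96% over all tested genes. The median difference from WT in this list was -1.14 in Dnmt3a-/- and 1.32 in the double knockout. WT replicate 2 stood apart in these genes, with S100a8, a subunit of calprotectin, at 4389 FPKM against 824 and 760 in the other WT libraries, and without it 3 of the 12 were called higher, against 3.38% of all tested genes.

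Of 15 lymphoid and B cell genes 5 were called higher (median 3.26), and of 14 T and NK cell genes 9 were called higher (median 2.93), against 3.43% over all tested genes. Of these calls 3 of the 5 and 5 of the 9 were kept with spread moderated within genotype, where 5 and 8 were called higher, against 2.96%. Of these members 3 and 6 averaged under 1 FPKM over the other 8 libraries, among them 2 of the 5 and 6 of the 9 called. They were tested only because of their double knockout level and could only be called higher, so the counts and the medians are a description. Pax5, the factor that sets B cell identity, read 0.74, 0.63 and 0.47 FPKM in WT, against 0.49 and a listed 0 with Bcor lost, 2.31, 1.25 and 1.6 with Dnmt3a lost, and 102 and 48.4 with both lost. It is one of the genes tested only because of its double knockout level. Cd79b, a signalling chain of the B cell receptor, passed the filter without the double knockout, with 24.3 to 41.4 FPKM in the other 8 libraries. It had 245.9 and 424 FPKM in the double knockout and an interaction of 3.29 ± 0.53 (limma, adjusted p = 0.00899), a call kept in every alternative. Dntt, the terminal transferase of early lymphoid cells, had 128 and 65.2 FPKM in Bcor-/- and 2.58 and 75.5 in the double knockout against 220 to 333 in WT. Its interaction of -2.47 was not called (adjusted p = 0.176 in limma), but gained a call in 2 of 21 alternatives. It was -0.26 without double knockout replicate 1 and -4.68 without replicate 2, and neither of these fits estimates the spread of the double knockout. Cd3g, a chain of the T cell receptor complex, had 12.3 and 57.3 FPKM and at most 0.86 elsewhere, and was likewise under the filter there. Genes of MHC class II, which B cells and macrophages carry, were called higher in 3 of 7 and in none lower (median 2.71), against 3.43% higher over all tested genes. The 3 kept their call with spread moderated within genotype, where 6 of 7 were called higher, against 2.96%. The B cell and T cell marker sums given above moved with these genes, and their part was not tested.

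Of 23 interferon-stimulated genes 5 were called higher and 2 lower, against 3.43% and 2.43% over all tested genes. With spread moderated within genotype 5 were called higher, 4 of them among the first 5, and none lower, against 2.96% and 1.83% over all tested genes. Irf7, which drives type I interferon transcription, had 89.2 and 58.3 FPKM in the double knockout and 8.62 to 18.4 in the others (3.24). Ifitm1 gave -2.44, with its call lost when spread was moderated within genotype (t-test, adjusted p = 0.0615). Bcl2l1, which encodes the survival protein BCL-XL, had 35.1 and 39.7 FPKM in the double knockout against 7.62 to 11.5 in the others, and an interaction of 1.96 ± 0.34 (limma, adjusted p = 0.0115). Socs2, a feedback inhibitor of cytokine receptors, gave 3.29, a call lost with spread moderated within genotype (t-test, adjusted p = 0.0533).

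No gene was called among 28 of DNA replication and mitosis, 11 of the D cyclins and CDK inhibitors, 16 of p53 and its targets, 11 of PRC1.1, 15 of PRC2 and canonical PRC1, 12 of the Myc network or 10 of MAPK feedback (limma), against 5.86% over all tested genes. At an unadjusted p under 0.05 with the fold limit, from 1 gene (PRC1.1) to 6 genes (D cyclins and CDK inhibitors) of each list passed, against 2458 of 11952 tested genes. Cdkn2a, 1 of the 6, was tested only because of its double knockout level and could only be called higher. The same holds for Zmat3 of the p53 list and Spry4 of the MAPK feedback list. The alternative with spread moderated within genotype called 1 gene of the Myc network lower and 1 of MAPK feedback higher. Over all tested genes it called 1.83% lower and 2.96% higher. Trp53 had 84.6 and 60.3 FPKM in the double knockout and 97.7 to 118 in the other libraries. Its interaction was -0.64 ± 0.26 (limma, adjusted p = 0.191). The estimate was -0.39 without double knockout replicate 2 and -0.88 without replicate 1. Each of these fits leaves 1 double knockout library, so the spread of that group is not estimated. Mdm2, the ligase that degrades p53, gave 0.48 ± 0.29 (adjusted p = 0.383 in limma). This was 0.92 without double knockout replicate 1 and 0.038 without replicate 2, with the same limit. Parp1, an enzyme of DNA repair, had 213 and 80.1 FPKM in the double knockout, on either side of the other libraries. Dnmt3b, the other de novo methyltransferase, was called lower at -1.49.

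**Figure D4:**
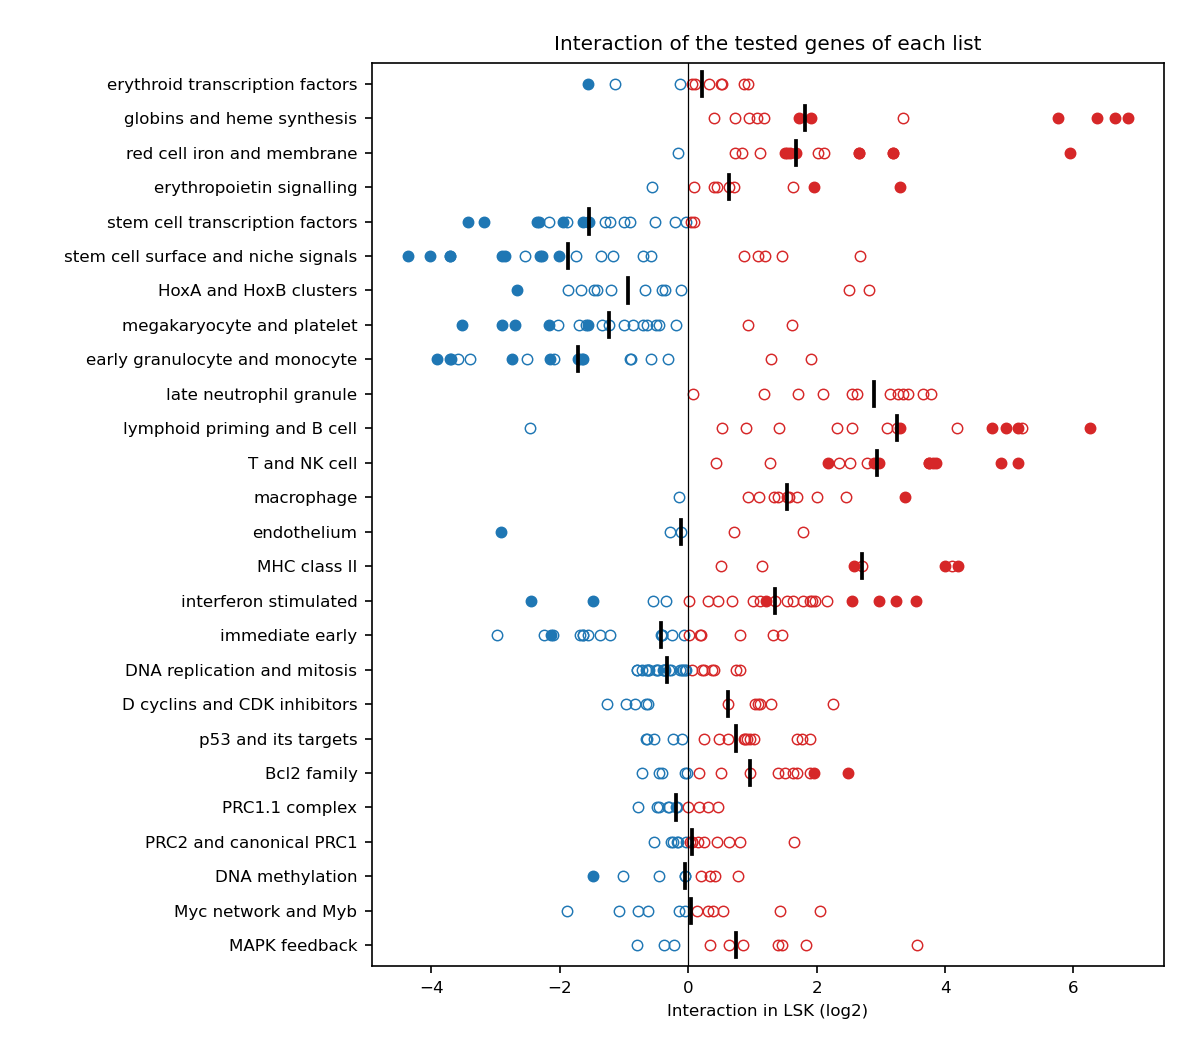
Interaction in LSK (log2, horizontal axis) of every tested gene of 26 lists, filled where called, with a black bar at the median of each list. The medians of the globin, red cell, B cell and T and NK cell lists lie to the right of 0, and those of the stem cell, megakaryocyte and early granulocyte lists to the left. The globin, B cell and T and NK cell lists hold 1, 3 and 6 genes tested only because of their double knockout level.

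The same contrast was fitted in MEP of the same mice. It called 69 of 10933 genes (0.631%), 51 higher (0.466%) and 18 lower, and with quantile normalization it called 51 higher and 89 lower, so that the share of higher genes went from 73.9% to 36.4%. Hba-a1 had 1055 and 55204 FPKM in the double knockout MEP against 90.7 to 279.8 elsewhere, with an interaction of 5.49 (limma, adjusted p = 0.0932). In MEP, replicate 2 of the double knockout has Hbb-b1 listed at 0, which can be a failed estimate. The MEP median of the stem cell transcription factors was -0.17, that of the early granulocyte and monocyte genes 0.68 and that of the late neutrophil genes 5.22, where 7 of 12 were called higher. When the difference of the interaction between LSK and MEP was itself tested within each mouse, 0 of 10773 genes (0%) passed in limma, 970 (9%) had an unadjusted p under 0.05, and 16 (0.149%) were called with equal variance for all genotypes. Thus no gene was shown to differ in its interaction between LSK and MEP.

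**Figure D5:**
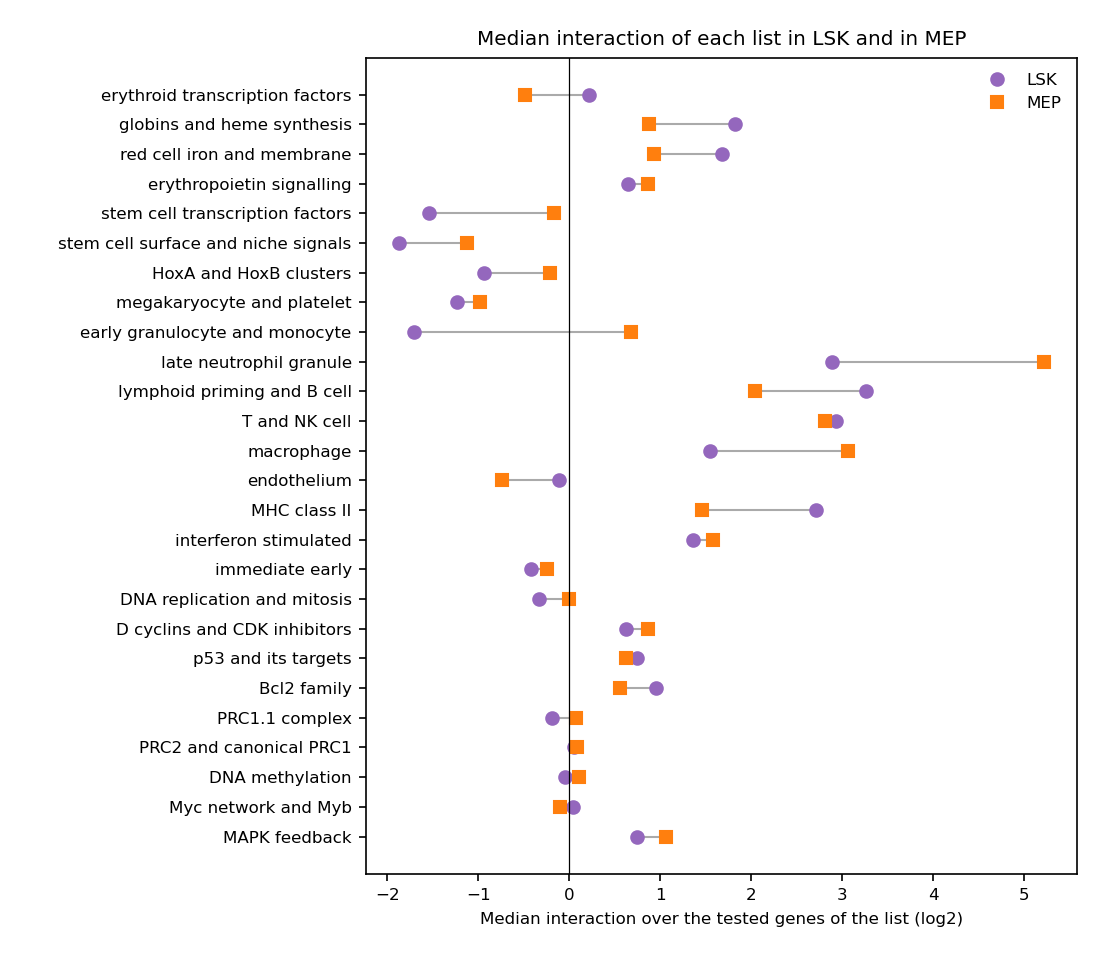
Median interaction (log2, horizontal axis) of the tested genes of 26 lists in LSK (circles) and MEP (squares). The early granulocyte and monocyte list lies at -1.71 in LSK and 0.68 in MEP, and the late neutrophil list at 2.89 and 5.22.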

How the data were processed

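RNA was measured by poly(A) RNA-seq in LSK and MEP cells sorted from bone marrow. Values are FPKM, read fragments divided by transcript length and library size, as deposited by the authors, in 1 table for each cell type, and the submitters' processing notes name STAR 2.5.1b, SAMtools 1.9, Cufflinks 2.2.1 and mm9. The scaling, annotation and strand setting are not given in the sources used here. Alas2, Cd34, Mpo, Prss57 and other named genes overlap an annotated gene on the opposite strand, whose reads cannot be told apart without strand. Relative depth, read from the steps of low FPKM, was 0.79 to 1.32 times that of WT replicate 1, and no counts were given.

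With R 4.3.3 and limma 3.58.1, log2(FPKM + 1) was fitted with 1 mean and 1 variance per genotype (arrayWeights) and a mean-variance trend. Calls needed a Benjamini-Hochberg adjusted p under 0.05 over all tested genes and more than 1.5-fold. The fold limit is that of the study, whose test is not given in the sources used here. The procedure was tested on simulated data, where errors were controlled when every gene shared the genotype variance factors. Unchanged genes were called beyond the nominal rate when each gene had its own spread in each genotype, so the adjusted p can be too small. The alternative with spread moderated within genotype was not better calibrated in simulation, so a call kept or lost there does not settle which calls are right. Every replicate carries its own mouse name. Genes named were taken from the 12 largest calls in each direction, Bcor effects absent in the double knockout, extremes of the 26 lists and a fixed set. Fech, Tfrc, Mecom, Itga2b, Gfi1, Csf3r, Cd79b and Pax5 fall outside this rule and were chosen after their values were seen, and some genes are not reported here. Members and lists were chosen with earlier results of these data known. Figures used Python 3.11.15 and matplotlib 3.10.9.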

Additional observations from a re-analysis of the deposited data

How the results depend on the processing

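The LSK count of 700 genes became 1774 with equal variance for all genotypes, 343 with no filter on low values and 2458 at an unadjusted p, and leaving out 1 library gave 526 to 4118. Without double knockout replicate 1 it was 4118 and without replicate 2 it was 3094, in an equal variance fit that assumes the lone library varies like the other genotypes. Of the 700 calls, 682 were kept with equal variance but 368 with spread moderated within each genotype, where 573 were called. Other alternatives gave 573 to 710. The MEP count of 69 became 1635 with equal variance, 27 with a pseudocount of 0.1, 21 with a minimum mean of 5 FPKM, 140 with quantile normalization, 2172 at an unadjusted p and 107 with spread moderated within genotype, and leaving out 1 library gave 6 to 3842. The LSK to MEP difference of 0 genes became 16 with equal variance and 968 at an unadjusted p with the fold limit. Replicate numbers did not pair the mice (2 of 10 libraries correlated best with their own number), and the fit with a replicate block called 573 genes in LSK and 64 in MEP. Among named genes not called, leaving out 1 library turned the sign of Klf1 (-0.029 without Bcor-/- replicate 1, range -0.029 to 1.06), Parp1 (-0.29 without double knockout replicate 1, range -0.29 to 1.11) and Dnmt3a (0.017 without WT replicate 2 and 0.086 without Dnmt3a-/- replicate 1, range -0.18 to 0.086). The cause of these shifts was not tested. With 2 double knockout libraries, the spread of that group in any 1 gene is poorly known.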
